A study of Homo sapiens with 12 samples.

Results

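The 33 genes described here are imprinted genes, which are expressed mainly or wholly from the copy inherited from 1 parent. They were a fixed list of 28 protein-coding and 5 long non-coding RNA genes, out of 59679 RefSeq genes on the placed chromosomes, and they fall into 16 imprinted loci. All 33 were found in the RefSeq gene table of GRCh38.p14, 32 by symbol and SLC22A18 by an older symbol of the gene now named SLC67A1. Each gene was examined over its body with 2 kb on either side, and a peak was counted where it reached at least 1 bp into this window. Membership rests on known imprinting and its rule uses no peak value, although the list was chosen with earlier results of these data known.

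The peaks came from ChIP-seq, in which DNA bound to a protein or histone mark is pulled down with an antibody and sequenced, in H1, an established human embryonic stem cell line grown in mTeSR1. The YTHDF1-knockdown cells carried an shRNA against YTHDF1 and gave a YTHDF1 group and an input group. Untreated H1 cells, called wild type here, gave YTHDF1, RNF2, H2AK119ub and input groups. Each of these 6 groups had 2 replicates, which the authors had merged into 1 peak list for each antibody. The 4 lists therefore carry no spread between replicates, no difference between lists could be tested, and the depth of the libraries is unknown. Cell identity was not checked here, since peak lists hold no expression values. The peaks were also not divided by parental copy, so binding to the expressed and to the silent copy cannot be told apart.

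YTHDF1 is best known as a cytoplasmic protein that binds messenger RNA carrying the modified base m6A. RNF2, also called RING1B, is the enzyme of Polycomb repressive complex 1 (PRC1) that attaches ubiquitin to a lysine near the end of histone H2A, the mark named H2AK119ub. At imprinted loci, DNA methylation laid down in egg or sperm at imprinting control regions marks the parental origin of each copy, and many of these regions are promoters of paternally expressed transcripts. In the mouse placenta, the long RNA Kcnq1ot1 silences a broad neighbourhood on the paternal chromosome together with Polycomb complexes.

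RNF2 and H2AK119ub were found at most of the imprinted genes, and YTHDF1 at 18 of the 33. In knockdown cells no gene of the list carried a YTHDF1 peak (0 of 33, exact 95% binomial interval 0 to 10.6%), against 18 of 33 (54.5%, 36.4 to 71.9%) in wild-type cells. The knockdown list held only 226 peaks and began at a stricter significance than the wild-type list, so these counts do not measure the same range of signal. RNF2 lay in 26 windows (78.8%, 61.1 to 91.0%) and H2AK119ub in 27 (81.8%, 64.5 to 93.0%), and each of the 26 genes with RNF2 also had H2AK119ub, a combination found at 35.2% of all genes and 68.9% of protein-coding genes. All 3 wild-type features were found at 16 genes, and none of them at 4. The intervals cover counting error only, and genes of a locus share peaks, so the genes are not independent units.

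These shares were near those of protein-coding genes in general. A knockdown YTHDF1 peak lay at 0 of the 33 imprinted genes, against 0.424% of all RefSeq genes, 0.843% of protein-coding genes and 0.366% of long non-coding RNA genes. Wild-type YTHDF1 lay at 15 of the 28 protein-coding imprinted genes (53.6%), against 54.1% of protein-coding genes and 31.2% of all genes. RNF2 lay at 22 of the 28 (78.6%), against 71.7% and 37.1%, and H2AK119ub at 23 (82.1%), against 79.0% and 48.0%. These shares differed from those of protein-coding genes by a few percentage points, well inside the width of the counting intervals. All 3 wild-type features lay at 13 of the 28 (46.4%), against 45.2% and 20.1%, and none of them at 3, against 14.8% and 43.4%. Of the 5 long non-coding RNA genes, 3 had YTHDF1, 4 had RNF2 and 4 had H2AK119ub, against 31.9%, 30.8% and 46.6% of all long non-coding RNA genes.

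Gene length went with these counts. Of the 10 imprinted genes under 10 kb, 0 had wild-type YTHDF1, 5 had RNF2 and 6 had H2AK119ub, against 14.7%, 22.6% and 35.1% of all genes of that length. Of the 11 from 10 to 50 kb, 8 had YTHDF1, 10 RNF2 and 10 H2AK119ub, against 43.1%, 51.6% and 62.2%. Of the 12 longer genes, 10 had YTHDF1, 11 RNF2 and 11 H2AK119ub, against 77.4%, 71.1% and 76.0%. Knockdown YTHDF1, absent from all of these imprinted genes, lay in 0.208%, 0.501% and 1.17% of all genes of the 3 length classes. These classes pool genes of every type, whereas 28 of the 33 imprinted genes are protein-coding. Shares of protein-coding genes by length were not computed, so differences from these classes cannot be told apart from gene type.

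Where the marks lay within the genes differed between them. A peak within 2 kb of either gene end was found for wild-type YTHDF1 at 6 of the 33 genes, against 18.2% of all and 29.1% of protein-coding genes. The other 12 genes with YTHDF1 had it only further inside the gene. For RNF2 the count was 25, against 34.6% and 67.1%, and for H2AK119ub 26, against 46.0% and 76.0%. No gene end had a knockdown peak, against 0.276% and 0.529%. By parental expression as textbooks give it, RNF2 lay at 8 of 9 maternally expressed genes and 14 of 20 paternally expressed genes. It also lay at 4 of 4 genes classed as imprinted by isoform (GRB10, GNAS, BLCAP and INPP5F). YTHDF1 lay at 4 of 9, 10 of 20 and 4 of 4 of the same groups. Protein-coding genes as a whole had RNF2 in 71.7% and YTHDF1 in 54.1% of windows, and with so few genes in each class no difference between the classes can be read from these counts.

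**Figure D1:**
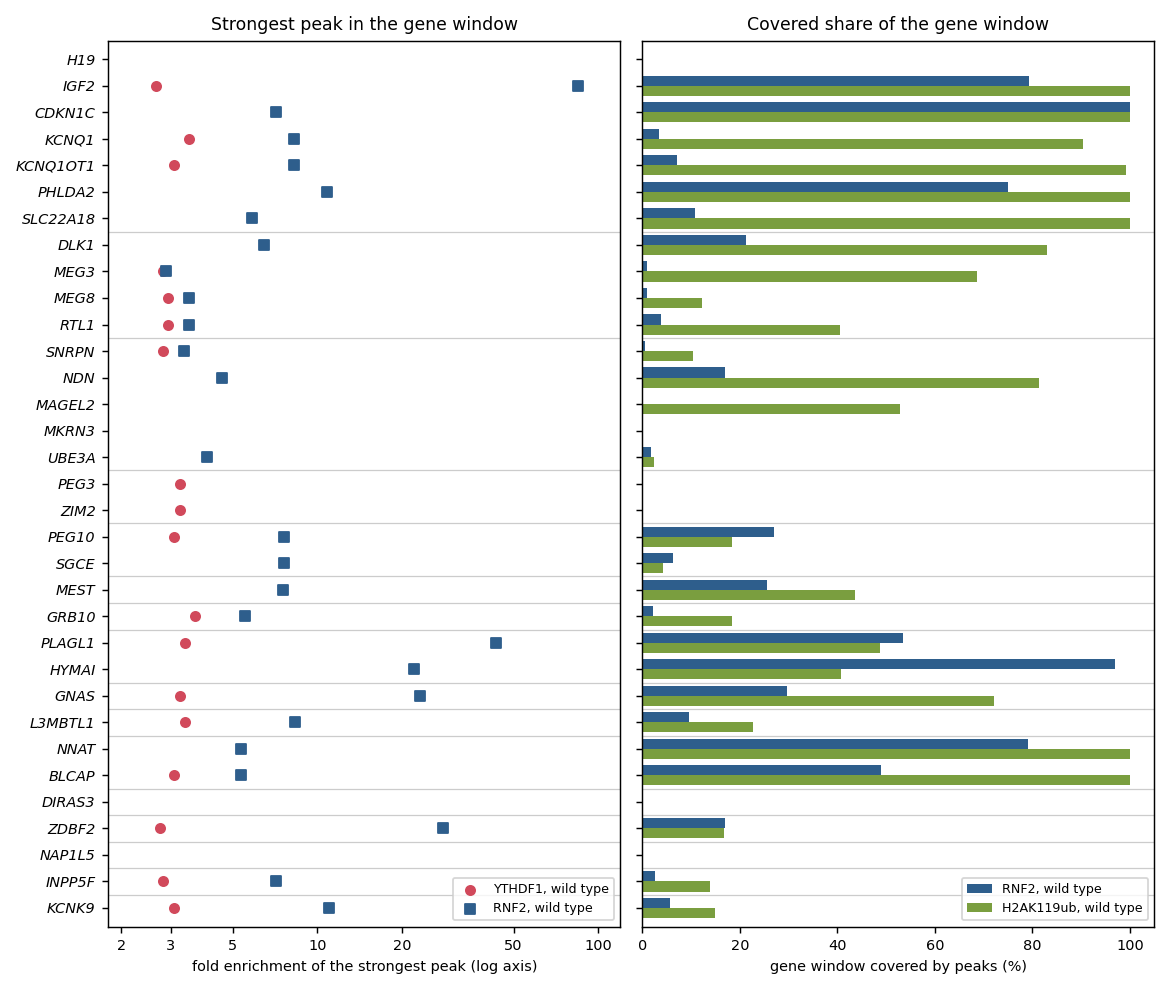
The left panel plots the fold enrichment (log axis) of the strongest wild-type YTHDF1 and RNF2 peak in the window of each of the 33 imprinted genes, and the right panel the percentage of the window covered by wild-type RNF2 and H2AK119ub, with grey lines between loci. YTHDF1 peaks sit between 2.66-fold and 3.66-fold, whereas RNF2 reaches 84.8-fold at IGF2, and H19, MKRN3, DIRAS3 and NAP1L5 have no mark.

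PRC1 features covered a larger share of the merged windows of the imprinted genes than of genes at large. The merged windows of the 33 genes spanned 1.88 Mb, of which RNF2 peaks covered 10.1% and H2AK119ub islands 39.8%. The merged windows of all genes were covered over 3.03% by RNF2 and 13.1% by H2AK119ub, and those of protein-coding genes over 3.45% and 14.9%. The median gene of the list had 6.24% of its window under RNF2 and 40.5% under H2AK119ub, against 3.07% and 15.3% for protein-coding genes. H2AK119ub covered at least 50% of the window at 13 of the 33 genes, against 30.0% of protein-coding genes, and RNF2 did so at 6, against 4.94%. The 13 included IGF2, CDKN1C, KCNQ1, KCNQ1OT1, PHLDA2 and SLC22A18, all of 11p15.5. The 6 were IGF2, CDKN1C, PHLDA2, PLAGL1, HYMAI and NNAT. The median and these counts were not recomputed without single loci, so an excess outside 11p15.5 and the PLAGL1 locus cannot be read from them. These shares are descriptions of merged lists and were not tested, and a few loci carried much of them. Without the 7 genes of 11p15.5 the H2AK119ub share was 22.5% and the RNF2 share 10.3%. Without the PLAGL1 locus alone these shares were 39.1% and 6.96%, and without both loci 19.8% and 5.92%.

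Single RNF2 peaks at imprinted genes reached high enrichment. Of the 59 RNF2 peaks in the windows, 9 (15.3%) were at least 10-fold, against 5.74% of the whole RNF2 list and 6.58% of the RNF2 peaks in gene windows. They lay at IGF2, PLAGL1 (3 peaks, of which 1 is shared with HYMAI), ZDBF2, GNAS (2 peaks), KCNK9 and PHLDA2. The median of the 59 was 4.03-fold, against 4.04-fold for RNF2 peaks in protein-coding windows, so a typical peak was no stronger. H2AK119ub overlapped 54 of the 59 (91.5%), against 85.1% of the list and 89.5% of its peaks in protein-coding windows. In turn, 32 of the 65 islands in the windows (49.2%) overlapped RNF2, against 39.9% of all islands and 47.1% of those in protein-coding windows. YTHDF1 overlapped 21 islands (32.3%), against 21.6% and 25.1%. The 5 RNF2 peaks without H2AK119ub were both peaks of SNRPN and 3 of PLAGL1, of which 1 also reaches the window of HYMAI.

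At 11p15.5, the region linked to Beckwith-Wiedemann and Silver-Russell syndromes, the marks divided sharply between neighbours. IGF2, a paternally expressed growth factor (chromosome 11, 2129117 to 2149566), carried the strongest RNF2 peak of all the imprinted genes. It measured 84.8-fold over 20.4 kb (2132209 to 2152582) and was number 100 of 29310 RNF2 peaks by p-value. Its H2AK119ub island of 94.4 kb (2126601 to 2221000) covered the whole IGF2 window and ran on over INS, the insulin gene, and TH, the tyrosine hydroxylase gene. Inside the RNF2 peak lay a 2.66-fold YTHDF1 peak (2140298 to 2140964), close to the weakest of its list with a −log10 q of 1.55. H19, the maternally expressed non-coding RNA that shares a control region with IGF2 (1995176 to 2001266), had no peak of any list. Its nearest YTHDF1 peak lay 48.8 kb away, its nearest H2AK119ub island 50.4 kb and its nearest RNF2 peak 87.8 kb.

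The KCNQ1 domain on the same chromosome was covered almost end to end by H2AK119ub. KCNQ1, a maternally expressed potassium channel gene of 404 kb (2445008 to 2849105), had 90.3% of its window under 14 islands, but only 3.37% under 10 RNF2 peaks. KCNQ1OT1, the paternally expressed antisense RNA that starts inside KCNQ1 (2608328 to 2699994), had 99.2% of its window under 2 islands, of which the larger spanned 93.2 kb. An 8.25-fold RNF2 peak (2697898 to 2702299), the strongest in KCNQ1, lay over the higher-coordinate end of KCNQ1OT1, which is the start of this antisense transcript. At the lower-coordinate end of KCNQ1, where that gene starts, the RNF2 peak measured 6.04-fold and also reached the window of TRPM5, a cation channel gene.

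The maternally expressed genes beyond KCNQ1 lay together under 1 island. It spanned 152 kb (2786201 to 2937800), was number 13 of 43331 islands by width, and covered the windows of CDKN1C, SLC22A18 and PHLDA2 completely. CDKN1C, which encodes the cell-cycle inhibitor p57, had a 7.11-fold RNF2 peak over 100% of its window. PHLDA2, a pleckstrin-homology protein that restrains placental growth, had a 10.8-fold RNF2 peak over 75.0% of its window. SLC22A18, a predicted transporter gene, had a 5.84-fold peak over 10.7%. YTHDF1 was absent from the windows of all of these, with the nearest peaks at 6.25 kb from CDKN1C, 7.03 kb from SLC22A18 and 12.9 kb from PHLDA2.

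KCNQ1 held 13 of the 42 YTHDF1 peaks found in all imprinted windows, between 2.66-fold and 3.50-fold, and 12 of them lay on H2AK119ub, a count near the 90.3% of the window that the islands cover. The exception, at 2491773 to 2492022, was a 2.80-fold peak in a gap between islands. RNF2 lay under 2 of the 13, at 2692200 to 2692529 and 2693358 to 2693991, and both belong also to KCNQ1OT1. The first of these overlapped its RNF2 peak (2692444 to 2692896) only in part. The strongest of the 13, at 3.50-fold with a −log10 q of 3.24, lay at 2753307 to 2753760 within a 45.4 kb island that held no RNF2 peak.

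**Figure D2:**
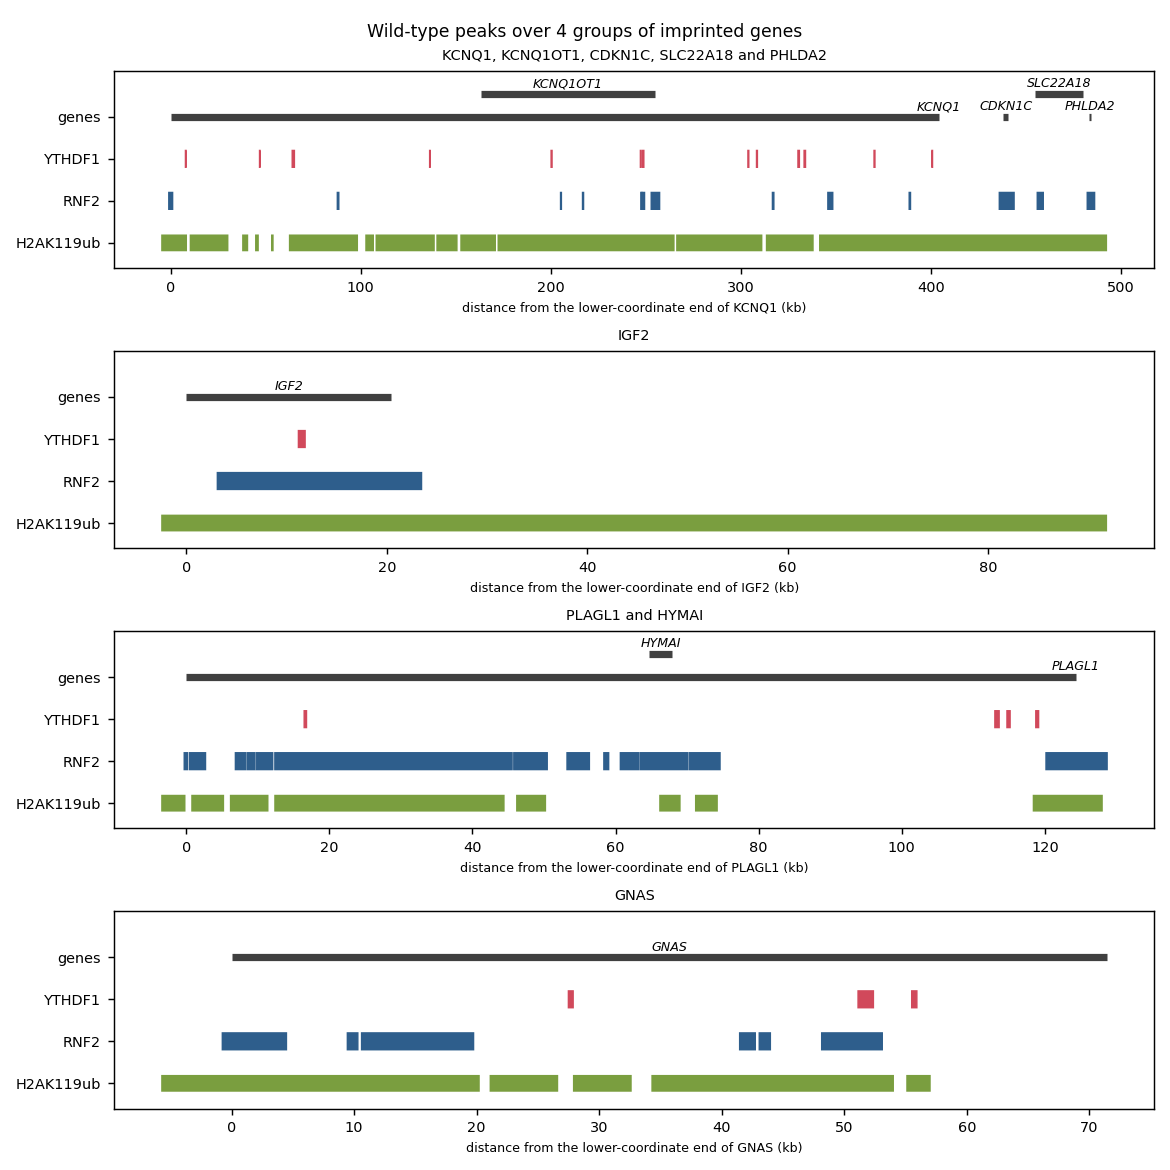
Wild-type peaks over KCNQ1 with its neighbours, IGF2, PLAGL1 with HYMAI, and GNAS are drawn against the distance in kb from the lower-coordinate end of the named gene, with genes as dark bars on top. Bars run from start to end of each peak, with a thin outline on YTHDF1 and RNF2 so that narrow peaks stay visible. H2AK119ub is near-continuous over the KCNQ1 domain (90.3% of the KCNQ1 window), while RNF2 forms separate short peaks there and a broad 33.1 kb domain in PLAGL1.

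At PLAGL1 and at ZDBF2, RNF2 formed broad domains instead. PLAGL1 encodes a paternally expressed zinc-finger factor linked to transient neonatal diabetes (chromosome 6, 143940300 to 144064599). It had 13 RNF2 peaks over 53.5% of its window and 8 islands over 48.7%. Its strongest RNF2 peak measured 43.4-fold over 33.1 kb (143952693 to 143985839) and coincided with a 32.2 kb island (143952601 to 143984800). A separate 22.1-fold peak of 6.62 kb lay over HYMAI, the non-coding RNA that starts from the imprinted PLAGL1 promoter, and with a weaker 3.03-fold peak it covered 96.9% of the HYMAI window. A further peak of 18.9-fold lay at the higher-coordinate end of PLAGL1. ZDBF2, a paternally expressed zinc-finger gene (chromosome 2, 206274663 to 206314427), lay at the edge of a 32.4 kb RNF2 domain of 28.1-fold (206245617 to 206277966) and of an island of similar extent (206248001 to 206280000). Both reached into the start of ZDBF2, and each mark covered about the same part of its window, 17.0% by RNF2 and 16.8% by H2AK119ub.

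GNAS, which encodes the stimulatory G-protein subunit and several imprinted alternative transcripts (chromosome 20, 58839748 to 58911192), had 6 RNF2 peaks over 29.6% and 5 islands over 72.2% of its window. Every one of its 6 RefSeq promoters lay under RNF2. Counted along the gene, promoters 1 and 2 shared a 9.41-fold peak, promoters 3 and 4 a 23.1-fold peak of 9.14 kb, and promoters 5 and 6 an 11-fold peak. A 3.23-fold YTHDF1 peak (58890870 to 58892120) lay inside the last of these, beyond promoter 6. The 2 further YTHDF1 peaks overlapped H2AK119ub without RNF2. For 1 of them (58867233 to 58867619) the overlap was only at the edge of an island that starts at 58867601.

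The genes of 14q32 had weaker marks. DLK1, a paternally expressed transmembrane protein of the Notch-ligand family (chromosome 14, 100726892 to 100738224), had a 6.47-fold RNF2 peak at its lower-coordinate end and 82.9% of its window under an island of 29.6 kb. MEG3, a maternally expressed non-coding RNA, had 68.6% of its window under 4 islands but a single RNF2 peak of 2.88-fold over 0.966%, and a 2.81-fold YTHDF1 peak on H2AK119ub. RTL1, a paternally expressed gene derived from a retrotransposon, and MEG8, a maternally expressed non-coding RNA, overlap in position and shared most peaks. These were RNF2 peaks of 3.49-fold and 3.22-fold and a 2.94-fold YTHDF1 peak (100904620 to 100904935) that lay on RNF2 and on H2AK119ub. MEG8 had another YTHDF1 peak of 2.74-fold on neither.

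At 15q11-q13, the region of Prader-Willi and Angelman syndromes, the marks were few. NDN, which encodes necdin, had a 4.56-fold RNF2 peak of 999 bp and 81.3% of its window under H2AK119ub. MAGEL2, a related MAGE-family gene, had H2AK119ub over 52.9% of its window and no RNF2, the only gene of the list with that pattern. MKRN3, a ubiquitin ligase gene that restrains the onset of puberty, had no peak, and its nearest H2AK119ub island was that of MAGEL2 at 76.6 kb. UBE3A, the ubiquitin ligase of Angelman syndrome, imprinted in neurons, had a 4.03-fold RNF2 peak and a 2.0 kb island at its higher-coordinate end, and a second, shorter island inside the gene. SNRPN, which encodes a splicing protein and contains the Prader-Willi imprinting centre (24823637 to 24978723), was the only gene of the list with YTHDF1 on RNF2 without H2AK119ub. This was seen at its lower-coordinate end (YTHDF1 2.81-fold, RNF2 3.35-fold) and at the promoter starting at 24856321 (YTHDF1 2.80-fold, RNF2 3.21-fold). SNRPN had 5 islands elsewhere, over 10.4% of its window. Its promoters 2, 3 and 4 (starting at 24862722, 24954737 and 24956050) lay under H2AK119ub without RNF2 or YTHDF1. No peak was assigned to the imprinting centre itself.

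The remaining loci had from 0 to 3 RNF2 peaks each. PEG10, a retrotransposon-derived gene, and SGCE, which encodes epsilon-sarcoglycan, share a divergent promoter on chromosome 7. A 7.62-fold RNF2 peak of 5.55 kb lay over it (94653444 to 94658993), with a 3.2 kb island, and a 3.08-fold YTHDF1 peak inside PEG10 lay on neither. MEST, an alpha/beta-hydrolase family gene, had RNF2 peaks of 7.51-fold and 3.91-fold under 1 island. GRB10, an adaptor protein that restrains insulin-like growth signalling, had a 3.14-fold RNF2 peak at its higher-coordinate end. A 5.51-fold RNF2 peak (50782029 to 50783291) lay further inside GRB10, over its RefSeq promoter 3. NNAT, which encodes the small membrane protein neuronatin, lies inside BLCAP, and both were wholly under a 17.8 kb island. Their shared RNF2 peak measured 5.34-fold, and a 3.09-fold YTHDF1 peak lay on a 3.23-fold RNF2 peak at the higher-coordinate end of BLCAP. KCNK9, a maternally expressed potassium channel gene on chromosome 8, had an 11-fold RNF2 peak over its higher-coordinate end and 6 YTHDF1 peaks, of which 2 lay on RNF2 and H2AK119ub.

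In addition to H19 and MKRN3, no peak was listed at DIRAS3, a Ras-family growth suppressor gene, or at NAP1L5, a nucleosome-assembly protein-like gene. The nearest RNF2 peaks lay 112 kb from DIRAS3 and 101 kb from NAP1L5. PEG3, a zinc-finger gene, and ZIM2, which overlaps it, had neither RNF2 nor H2AK119ub, with the nearest RNF2 peak 242 kb from PEG3. They shared a 3.23-fold YTHDF1 peak (chromosome 19, 56833223 to 56833627). All 4 genes without any peak were under 10 kb, and 43.4% of all RefSeq genes had none of the wild-type marks.

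RefSeq promoter sequences of 300 bases, from 250 before to 50 after a transcript start, were at hand for 20 of the 33 genes, 49 distinct promoters in all. Several genes have alternative promoters, and those that start close together overlap and share peaks. An RNF2 peak lay over 33 of the 49 (67.3%), against 48.7% of 35116 promoters genome-wide. H2AK119ub lay over 40 (81.6%, against 59.7%) and wild-type YTHDF1 over 6 (12.2%, against 10.6%), while no knockdown YTHDF1 peak did, against 0.279%. The 6 with YTHDF1 were the first promoters of L3MBTL1, INPP5F and SNRPN, promoters 1 and 2 of BLCAP, which overlap, and promoter 2 of PLAGL1. Of these, the PLAGL1 promoter had no RNF2.

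The following 8 promoters (GRCh38.p14, 5′ to 3′ along the gene, CpG dinucleotides in capitals) stand for 6 of the combinations of marks. L3MBTL1 promoter 1 had all 3 marks and its promoter 2 RNF2 alone. SNRPN promoter 1 had YTHDF1 with RNF2, and PLAGL1 promoter 2 YTHDF1 alone. PLAGL1 promoter 3, which is also that of HYMAI, had strong RNF2 with H2AK119ub. The MAGEL2 promoter had H2AK119ub alone, as did 9 of the 49 promoters. The promoters of DIRAS3 and NAP1L5 had no mark.
L3MBTL1 promoter 1 (chr20:43507447-43507746, plus strand): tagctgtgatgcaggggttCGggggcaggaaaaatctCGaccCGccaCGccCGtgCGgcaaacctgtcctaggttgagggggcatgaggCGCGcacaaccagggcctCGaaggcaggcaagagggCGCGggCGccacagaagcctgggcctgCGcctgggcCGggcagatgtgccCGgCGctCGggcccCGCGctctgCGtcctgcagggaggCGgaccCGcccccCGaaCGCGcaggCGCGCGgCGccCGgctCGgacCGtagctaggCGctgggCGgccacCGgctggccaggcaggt
L3MBTL1 promoter 2 (chr20:43514191-43514490, plus strand): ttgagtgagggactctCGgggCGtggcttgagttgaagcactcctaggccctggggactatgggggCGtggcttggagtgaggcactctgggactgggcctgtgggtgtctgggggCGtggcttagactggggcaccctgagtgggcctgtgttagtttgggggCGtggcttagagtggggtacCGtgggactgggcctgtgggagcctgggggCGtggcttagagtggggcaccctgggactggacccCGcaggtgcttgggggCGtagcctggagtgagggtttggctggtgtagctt
SNRPN promoter 1 (chr15:24856321-24856620, plus strand): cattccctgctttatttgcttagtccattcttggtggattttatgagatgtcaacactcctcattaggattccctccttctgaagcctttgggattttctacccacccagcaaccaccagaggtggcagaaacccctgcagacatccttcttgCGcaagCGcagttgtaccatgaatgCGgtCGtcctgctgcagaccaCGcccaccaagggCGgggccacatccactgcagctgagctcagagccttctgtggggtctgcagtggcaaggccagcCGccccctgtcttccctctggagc
PLAGL1 promoter 2 (chr6:144055213-144055512, minus strand): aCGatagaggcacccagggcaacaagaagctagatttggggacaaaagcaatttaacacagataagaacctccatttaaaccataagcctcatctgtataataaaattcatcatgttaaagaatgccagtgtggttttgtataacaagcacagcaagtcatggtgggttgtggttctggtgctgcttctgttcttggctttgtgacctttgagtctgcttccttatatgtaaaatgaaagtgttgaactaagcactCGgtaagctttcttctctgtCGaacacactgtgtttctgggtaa
PLAGL1 promoter 3 (chr6:144008210-144008509, minus strand): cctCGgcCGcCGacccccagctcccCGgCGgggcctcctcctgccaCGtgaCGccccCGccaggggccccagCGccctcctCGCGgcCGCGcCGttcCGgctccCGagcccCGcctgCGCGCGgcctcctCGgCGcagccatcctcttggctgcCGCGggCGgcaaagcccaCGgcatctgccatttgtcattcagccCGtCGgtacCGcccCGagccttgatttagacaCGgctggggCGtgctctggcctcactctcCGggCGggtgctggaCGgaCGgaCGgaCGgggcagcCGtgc
MAGEL2 promoter 1 (chr15:23647818-23648117, minus strand): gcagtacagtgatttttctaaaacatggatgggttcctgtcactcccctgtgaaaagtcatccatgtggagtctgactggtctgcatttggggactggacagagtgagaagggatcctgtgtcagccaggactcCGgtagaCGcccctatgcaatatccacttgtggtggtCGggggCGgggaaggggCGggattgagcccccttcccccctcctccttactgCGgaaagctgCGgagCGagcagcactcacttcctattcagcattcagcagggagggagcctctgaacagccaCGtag
DIRAS3 promoter 1 (chr1:68050578-68050877, minus strand): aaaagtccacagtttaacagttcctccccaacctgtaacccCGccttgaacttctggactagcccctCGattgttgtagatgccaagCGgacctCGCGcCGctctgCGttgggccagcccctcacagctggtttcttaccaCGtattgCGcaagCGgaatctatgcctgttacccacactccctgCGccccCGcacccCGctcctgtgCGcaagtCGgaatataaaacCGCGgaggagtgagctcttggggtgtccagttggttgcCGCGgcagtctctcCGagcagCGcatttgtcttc
NAP1L5 promoter 1 (chr4:88697780-88698079, minus strand): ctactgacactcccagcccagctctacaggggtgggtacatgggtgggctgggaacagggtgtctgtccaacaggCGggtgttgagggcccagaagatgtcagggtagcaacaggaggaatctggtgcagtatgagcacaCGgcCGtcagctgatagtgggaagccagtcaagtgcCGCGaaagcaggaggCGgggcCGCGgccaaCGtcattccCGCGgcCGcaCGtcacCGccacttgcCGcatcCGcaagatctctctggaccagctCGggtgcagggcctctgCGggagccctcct

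CpG content differed widely among these promoters and went only partly with RNF2. L3MBTL1, which encodes a chromatin-compacting protein with malignant brain tumour repeats, had 35 CpGs in promoter 1, under an 8.35-fold RNF2 peak and a 3.37-fold YTHDF1 peak (chromosome 20, 43507462 to 43507927). Its promoter 2 had 9 CpGs, a 4.03-fold RNF2 peak and no YTHDF1, and lay in a gap between 2 H2AK119ub islands. INPP5F, an inositol phosphatase gene, had 34 CpGs, RNF2 at 5.59-fold and YTHDF1 at 2.81-fold at promoter 1. At its promoter 2, which lies far inside the gene and has 9 CpGs, RNF2 was 7.11-fold without YTHDF1. PLAGL1 had 39 CpGs in promoter 3 under the 22.1-fold RNF2 peak, but only 3 in promoter 4, which lay under the 43.4-fold domain, and 3 in promoter 2, which had no RNF2.

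All 17 imprinted promoters with at least 25 CpGs had RNF2, against 89.8% of 11246 such promoters genome-wide. Among those with 15 to 24 CpGs, 9 of 16 had it, against 73.5%. The 7 without RNF2 were 3 overlapping promoters of MEG3, promoter 3 of SNRPN, and the only listed promoters of MKRN3, DIRAS3 and NAP1L5, with 15 to 21 CpGs each. With 5 to 14 CpGs the count was 5 of 10, against 29.1%, and with 0 to 4 CpGs it was 2 of 6, against 4.44%. Both of the last lay in the broad PLAGL1 domain. The sequence TGCCGC, the core of the motif bound by the imprint-protecting protein ZFP57, was searched on both strands as TGCCGC or GCGGCA. It was found in 20 of the 49 promoters (40.8%), against 16.7% genome-wide. In the class with 15 to 24 CpGs it was in 10 of 16, against 21.4%, and with at least 25 CpGs in 7 of 17, against 32.5%. Overlapping promoters count the same match more than once, and a match is not evidence of binding.

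**Figure D3:**
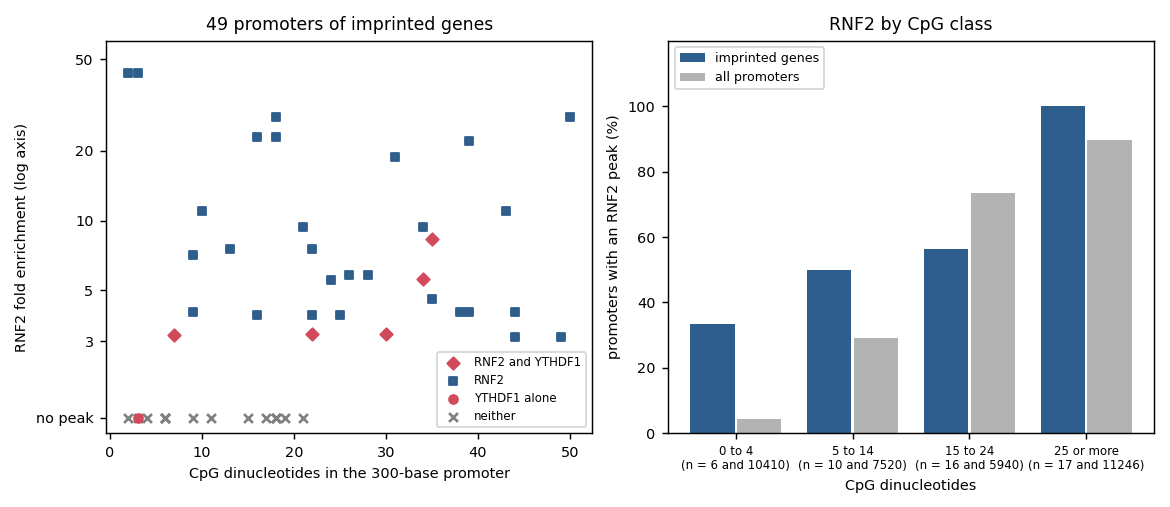
The left panel plots RNF2 fold enrichment (log axis) against the number of CpG dinucleotides for the 49 promoters of imprinted genes, with those lacking an RNF2 peak at the bottom. The right panel gives the percentage of promoters with an RNF2 peak in 4 CpG classes, for imprinted genes (left bars) and all promoters (right bars). Imprinted promoters with 15 to 24 CpGs had RNF2 in 9 of 16 cases, against 73.5% of all promoters in that class.

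YTHDF1 peaks at imprinted genes were as weak as those of their list, and 26 of 42 lay on H2AK119ub. The 42 peaks had fold enrichments from 2.41 to 3.66, with a median of 2.88, against 2.89 for the whole list of 44498. Their density was 22.4 per Mb of merged window, against 17.1 over all gene windows. The strongest lay inside GRB10 (chromosome 7, 50685392 to 50686115) at 3.66-fold with a −log10 q of 4.13, and it overlapped neither RNF2 nor H2AK119ub. RNF2 lay under 14 of the 42 (33.3%, exact 95% interval 19.6 to 49.5%), against 12.7% of the whole list and 19.5% of its peaks in protein-coding windows. H2AK119ub lay under 26 (61.9%, 45.6 to 76.4%), against 28.3% and 38.1%. The windows differ in the same direction, since RNF2 covered 10.1% and H2AK119ub 39.8% of the imprinted windows, against 3.45% and 14.9% of the protein-coding ones, and the part of this in the overlap was not tested. Both lay under 12, RNF2 alone under 2, H2AK119ub alone under 14 and neither under 14. Where the overlap had to be at least 50% of the shorter peak, RNF2 lay under 13 and H2AK119ub under 25. KCNQ1 weighed on the second share: without KCNQ1 and KCNQ1OT1 the H2AK119ub share was 48.3% and the RNF2 share 41.4% of 29 peaks. These shares were not tested, since peaks of a gene are not replicates.

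**Figure D4:**
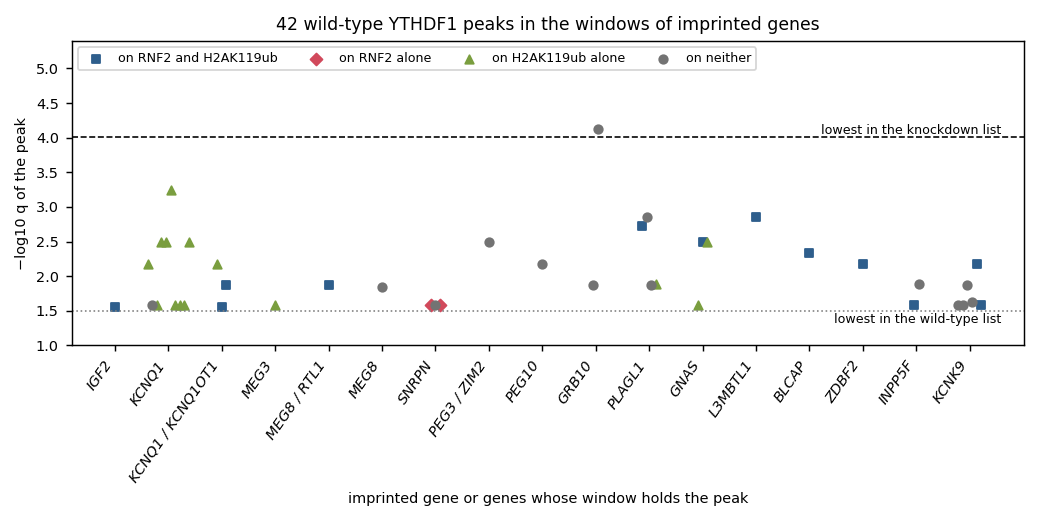
Each point is 1 of the 42 wild-type YTHDF1 peaks, placed by the imprinted gene or genes whose window holds it and by its −log10 q, with colour and shape for the PRC1 features under it. The dashed line marks the lowest value in the knockdown list (4.01) and the dotted line that in the wild-type list (1.50). Only the GRB10 peak, at 4.13, lies above the dashed line.

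The absence of knockdown peaks at these genes rests on few candidates. The knockdown list of 226 peaks had a lowest −log10 q of 4.01, against 1.50 in the wild-type list. Of the 42 wild-type peaks, 1 had a −log10 q of at least 4, that of GRB10, and it had no counterpart in the knockdown list. Such a peak lay in the window of 1.92% of all genes and 4.12% of protein-coding genes. The other 41 lay below the lowest value of the knockdown list, so these lists cannot show whether YTHDF1 signal at them differed in knockdown cells. The nearest knockdown peak to an imprinted window lay 381 kb from that of PEG3 and ZIM2 (57223977 to 57224379, 4.15-fold). It was in the window of the zinc-finger gene ZNF264, which is on the list of other imprinted genes below. The median distance over the 33 genes was 2343 kb.

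Of 46 other imprinted genes, 28 had wild-type YTHDF1 (60.9%, against 54.1% of protein-coding genes), 32 RNF2 (69.6%, against 71.7%) and 40 H2AK119ub (87.0%, against 79.0%). The shares of all genes were 31.2%, 37.1% and 48.0%. All 3 were found at 22 (47.8%, against 45.2% of protein-coding and 20.1% of all genes). These counts too were near those of protein-coding genes and above those of all genes. The list mixes protein-coding and non-coding genes, which were not counted apart. Whether each gene on it is imprinted in human cells was not checked here. ZNF264 was the only gene among them with a knockdown YTHDF1 peak (2.17%, against 0.843% of protein-coding and 0.424% of all genes). None of the wild-type marks was found at 14.8% of protein-coding and 43.4% of all genes. Of the 46, only MIMT1, a non-coding RNA gene beside PEG3, had none. Their strongest YTHDF1 peaks lay at HM13, which encodes signal peptide peptidase (3.56-fold, −log10 q 7.05), FAM50B (4.07-fold), ATP10A, a phospholipid-transporting ATPase (3.80-fold), and NAP1L4, a histone chaperone (3.60-fold). Each of these 4 peaks lay on an RNF2 peak, against 12.7% of the whole YTHDF1 list and 19.5% of its peaks in protein-coding windows. Only these 4, picked as the strongest, were examined for this overlap. Their −log10 q of 7.05, 5.21, 5.08 and 3.79 stand beside 4.13 for the strongest of the 33 genes.

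Of 22 genes that set or protect imprints, 12 had wild-type YTHDF1 (54.5%, against 54.1% of protein-coding genes), 15 RNF2 (68.2%, against 71.7%) and 21 H2AK119ub (95.5%, against 79.0%). All 3 were found at 9 (40.9%, against 45.2%) and a knockdown peak at 0 (against 0.843%). KHDC3L, an oocyte factor gene, was the only gene of the 22 with none of the wild-type features, against 14.8% of protein-coding genes. The strongest YTHDF1 peaks were at TET3, an enzyme that oxidises methylcytosine (3.59-fold), at the DNA methyltransferase genes DNMT1 (3.55-fold) and DNMT3A (3.51-fold), and at the histone methyltransferase gene SETDB1 (3.51-fold). None of these 4 peaks, also picked as the strongest, overlapped RNF2. Of the whole YTHDF1 list 12.7% did, and of its peaks in protein-coding windows 19.5%.

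MicroRNAs lie inside some of the imprinted genes, and 7 hairpins of the RefSeq table were found in 4 of them. The hairpin of MIR770 inside MEG3 was the only 1 on an H2AK119ub island, and 0 lay on RNF2 or YTHDF1. The others were in RTL1 (4), H19 (MIR675) and MEST (MIR335), and no mature form listed in MEG8 or RTL1 lay on a peak. The mature forms below (RefSeq, GRCh38.p14, seed bases 2 to 8 in capitals) are those of the hairpin with the mark and of the unmarked H19 and MEST hairpins, and no seed is shared among them.
hsa-miR-770-5p in MEG3 (chr14:100852409-100852431, plus strand): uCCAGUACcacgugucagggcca
hsa-miR-675-5p in H19 (chr11:1996800-1996822, minus strand): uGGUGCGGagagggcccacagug
hsa-miR-335-5p in MEST (chr7:130496126-130496148, plus strand): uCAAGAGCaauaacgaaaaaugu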

How the data were processed

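Per the labels, ChIP-seq of YTHDF1 in knockdown H1 cells, and of YTHDF1, RNF2 and H2AK119ub in untreated H1 cells, was made in 2 replicates each beside inputs, and the authors deposited 1 merged peak list per antibody. The submitters' processing notes name the genome build hg38, MACS2 2.1.0 and SICER 1.1, and also Bowtie2 2.2.5, Trimmomatic 0.35, Picard and SAMtools 1.3.1. Which caller made which list, and with what settings, they do not say.

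The YTHDF1 and RNF2 lists hold the authors' fold enrichment (a ratio) and −log10 of a p-value and of a q-value for each peak, which are used only to describe and rank peaks within a list. The deposited score of an H2AK119ub island, capped at 1000 and of unstated scale, served only to rank islands for 1 alternative. Depth is unknown, and no test between groups was possible.

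Genes, promoters and miRNAs came from RefSeq (GRCh38.p14). No genome sequence, exons or introns were used. Peaks were assigned to gene bodies with 2 kb either side at 1 bp of overlap with python 3.11.15, numpy 2.4.6, pandas 2.3.3 and scipy 1.17.1, and the overlap code was tested on simulated data. Shares have exact (Clopper-Pearson) 95% intervals. Background shares were computed over all RefSeq genes on placed chromosomes.

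The genes and lists were chosen with earlier results of these data known, and the parental classes were assigned from textbook knowledge after values were seen. All 33 genes are named. Of the other imprinted genes and the imprint factors, the 4 with the strongest wild-type YTHDF1 peak by −log10 p are named, and ZNF264, MIMT1 and KHDC3L were added after their values were seen. Alternatives were other windows, peak midpoints, stricter peak thresholds, a larger minimum overlap and loci counted once.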

Additional observations from a re-analysis of the deposited data

How the results depend on the processing

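The YTHDF1 count depended most on the settings: 18 of 33 genes had a wild-type peak, against 6 when the peak had to lie within 2 kb of a gene end and 1 at a −log10 q of at least 4. At gene ends these 6 genes (18.2%) equal the share of all genes (18.2%) and lie below that of protein-coding genes (29.1%), whereas over the gene window the share of 54.5% stands above 31.2% of all genes and beside 54.1% of protein-coding genes. Under the other window and peak settings YTHDF1 lay at 13 to 20 genes, RNF2 at 22 to 26 and H2AK119ub at 21 to 27, and knockdown YTHDF1 at 0. The count with all 3 wild-type features was 16, against 5 and 1 under the same settings. In RefSeq promoters of 300 bases, a setting chosen after seeing the data, 5 of 20 genes had YTHDF1, against 10 of these 20 over the gene window. Summed over genes, with overlapping genes counted separately, the covered share was 1.08% for YTHDF1 (1.02% over gene bodies alone, 1.01% with 5 kb either side), 10.5% for RNF2 (9.19% and 10.6%) and 42.4% for H2AK119ub (41.7% and 42.0%).

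No paired analysis was possible because each antibody's replicates were merged into 1 list, and leaving out a replicate was not possible either. Neither the spread between replicates nor peaks below the authors' thresholds can be seen in these lists.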
